A study of Mus musculus with 9 samples.

Results

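The intercalated disc junction genes are 9 genes picked by name from the 37840 gene rows of the deposited tables: Gja1, Cdh2, Ctnna3, Dsp, Pkp2, Jup, Dsg2, Dsc2 and Tjp1. Their RNA was followed in single nuclei of mouse ventricles across cell types and 3 groups of 3 libraries each. Nuclei of C57BL6/J mice had been captured in droplets with barcoded beads that prime on poly(A) tails, and each RNA molecule had been counted once by its molecular identifier (UMI). The KO P10 group carried knockouts of ERRα and ERRγ (ERRalphaKO/ERRgammaKO) and was taken at postnatal days 9 to 10. The control P10 group (ERRalphaHet/ERRgammaWT) had the same age, and the control P6 group had that control genotype at postnatal day 6. Both control groups were heterozygous for ERRα, so no group was wild type for it. The labels name no promoter or Cre behind the deletions, give sex as not determined and leave unsaid whether each library had an animal of its own. The p-values below therefore measure the spread between libraries, which may be technical. ERRα and ERRγ, listed as Esrra and Esrrg, are nuclear receptors that activate mitochondrial and metabolic genes, and the design asks how heart cells mature after birth with and without them.

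The intercalated disc is the end-to-end contact between heart muscle cells. Its adherens junctions tie the actin of neighbouring cells together, its desmosomes tie their desmin filaments, and its gap junctions pass the electrical impulse. In newborn rodent hearts these junctions lie along the whole cell border and gather at the cell ends over the weeks after birth. In people, inherited loss of desmosome proteins causes arrhythmogenic cardiomyopathy.

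Of the members, Dsp encodes desmoplakin, which links the desmosome to desmin (chr13:38151294-38198577, plus strand). Pkp2 encodes plakophilin 2 (chr16:16213318-16272712, plus strand) and Jup encodes plakoglobin (chr11:100368958-100397763, minus strand), the armadillo proteins that join desmoplakin to the desmosomal cadherins. Dsg2 (chr18:20558074-20604521, plus strand) and Dsc2 (chr18:20030633-20059554, minus strand) encode those cadherins, desmoglein 2 and desmocollin 2. Cdh2 encodes N-cadherin, the cadherin of the cardiac adherens junction (chr18:16588877-16809246, minus strand). Ctnna3 encodes αT-catenin, which couples cadherin complexes to actin and also binds plakophilin 2 (chr10:63430098-65003667, plus strand). Gja1 encodes the main gap junction channel protein of ventricular muscle (chr10:56377330-56402513, plus strand), and Tjp1 encodes ZO-1, a scaffold at the edge of gap junctions (chr7:65296165-65527781, minus strand).

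All positions are of GRCm38. The tables count exonic and intronic reads together and the use of strand is not given in the sources used here, so reads of overlapping genes on the other strand could not be told apart. Lrrtm3 covers 161806 bases of Ctnna3 on the opposite strand, Gm16090 covers 6558 bases of Dsg2, and shorter opposite-strand genes overlap Dsp, Cdh2 and Tjp1.

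Dsp RNA was called lower in KO P10 cardiomyocyte-like nuclei, and Ctnna3 RNA was called lower in the other tested classes of that group. Ctnna3 was lower in cardiomyocyte-like nuclei too, without passing the test. Upstream sequences of Dsp and Ctnna3 are shown for these calls. They are the 250 bases before an annotated start in RefSeq (GRCm38.p6), and 5 of the 9 members have such sequences here, with 7 starts in all. For Dsp the window was chr13:38151044-38151293 on the plus strand, and for Ctnna3 start 1 it was chr10:63429848-63430097 and for start 2 chr10:63457261-63457510, both on the plus strand. Capitals mark a match to the MCAT motif, the binding letters of TEAD factors of muscle promoters.
Dsp: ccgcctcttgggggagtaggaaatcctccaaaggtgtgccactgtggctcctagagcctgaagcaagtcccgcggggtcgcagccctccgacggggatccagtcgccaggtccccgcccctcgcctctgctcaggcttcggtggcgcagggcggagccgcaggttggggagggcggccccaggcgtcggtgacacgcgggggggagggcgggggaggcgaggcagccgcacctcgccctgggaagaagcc
Ctnna3 start 1: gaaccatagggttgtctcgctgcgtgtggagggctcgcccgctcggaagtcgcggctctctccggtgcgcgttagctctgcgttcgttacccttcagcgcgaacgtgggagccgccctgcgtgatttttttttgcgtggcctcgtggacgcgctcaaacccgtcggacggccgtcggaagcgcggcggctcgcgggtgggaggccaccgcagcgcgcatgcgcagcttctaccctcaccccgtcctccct
Ctnna3 start 2: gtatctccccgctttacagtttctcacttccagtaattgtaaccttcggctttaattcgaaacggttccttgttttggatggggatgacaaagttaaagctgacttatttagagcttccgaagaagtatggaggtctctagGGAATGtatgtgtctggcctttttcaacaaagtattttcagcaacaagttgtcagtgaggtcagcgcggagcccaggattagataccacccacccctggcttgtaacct
All 7 windows were searched on both strands for 3 motifs. The motif that ERR proteins bind, AAGGTCA, was in none of the 7, while 4.08% of the 32851 windows of that length in the table held it. The MCAT letters, CATTCC, were found once, on the minus strand of Ctnna3 start 2 from 109 to 104 bases before the start, against 12.6% of all windows. The TATA box, TATAAA, was also found once, from 185 to 180 bases before the third start of Ctnna3, against 12.4% of all windows. The Dsp window had a GC content of 72.4%, Ctnna3 start 1 had 67.6%, and Ctnna3 start 2 had 44.8%. These matches describe the letters in these windows and bear on no binding.

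The 9 libraries held 2608067 to 5769630 UMIs, and 25307 nuclei remained after filters, 1788 to 3681 per library with median depths of 739 to 941 UMIs. Mitochondrially encoded genes, left out of the later sums, held 40.8% of all UMIs in control P10 library 1 and 0.89% to 17.8% in the others. In control P10 library 1, 1923 of 4000 barcodes were under 500 UMIs, and control P6 library 1 came next with 1118 of 3000. KO P10 libraries 1 and 2 shared 465 barcodes, of which 464 were left out of library 2. Nuclei fell into 15 clusters, named "-like" from marker genes where the markers allowed it. There were 9981 cardiomyocyte-like, 4569 fibroblast-like, 1829 endothelial-like, 1240 endocardial-like, 422 pericyte-like, 174 macrophage-like and 121 epicardial-like nuclei, and 6971 stayed unnamed. Unnamed cluster 6, with Kcnd2, Kcnn2 and Mhrt as its leading genes, took 564 of its 987 nuclei from KO P10 library 1 and 251 from control P10 library 1, so library 1 of these groups stood apart. The other unnamed clusters were low in the nuclear RNA Malat1 and uneven between groups. Cluster 11 held 557, 495 and 450 nuclei of KO P10 libraries 1 to 3, against 43, 68 and 59 of control P10. Cluster 8 held 822, 53 and 105 of KO P10, against 528, 293 and 410 of control P10. Cluster 0 was mostly control P6, with 131, 283 and 249. Xist had over 1000 UMIs in 5 of the 9 libraries, KO P10 1, control P10 1 and all control P6 libraries. The first 4 classes had enough nuclei in every library to be tested, with 519 to 1525 cardiomyocyte-like nuclei and 548542 to 1839546 of their UMIs per library. Levels within a class are CPM, UMIs scaled to 1000000 of the class sum with TMM factors.

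The targeted genes were checked first. In cardiomyocyte-like nuclei Esrra had 13, 26 and 19.3 CPM in KO P10 libraries 1 to 3, against 96.8, 99.3 and 75.0 CPM in control P10 libraries 1 to 3. Esrrg had 742, 684 and 813 CPM in KO P10, against 1971, 1317 and 1700 CPM in control P10. Neither gene overlapped between the groups, with log2 fold changes of -2.14 ± 0.28 (SE) for Esrra and -1.15 ± 0.27 for Esrrg (adjusted p = 0.000201 and 0.0107, edgeR). The deleted parts are not given in the labels and intronic reads are counted, so the remaining Esrrg counts check the genotype only in part.

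Most of the junction genes were highest in cardiomyocyte-like nuclei. Here levels are raw UMIs scaled to 1000000 UMIs of the class (raw CPM), given as the median over 9 libraries, and they are described without a test. Gja1 had a median of 621 (lowest 280, highest 796) in cardiomyocyte-like nuclei and of 350 in endothelial-like nuclei. It had 123 in fibroblast-like and 89.3 in endocardial-like nuclei. The cardiomyocyte-like level was above the endothelial-like level in 9 of 9 libraries, while fibroblast-like and endocardial-like levels crossed, the first being higher in 6 of 9. Ctnna3 had a median of 4498 (2929 to 8042) in cardiomyocyte-like nuclei and 660 in endothelial-like nuclei, with 9 of 9 libraries in that order. Its endothelial-like level was above the fibroblast-like level of 431 in 6 of 9 libraries, and fibroblast-like nuclei were above endocardial-like nuclei, with 429, in 7 of 9. Cdh2 followed the same order, with 964 in cardiomyocyte-like nuclei and 202, 193 and 166 in endothelial-like, fibroblast-like and endocardial-like nuclei, and the last pair was in that order in 4 of 9 libraries.

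Among the desmosome genes, Pkp2 had a median of 501 raw CPM in cardiomyocyte-like nuclei and 127 in endothelial-like nuclei, higher in all 9 libraries. Dsp had 306 and 205 in these classes, with 7 of 9 libraries in that order, so this pair was the least separated. Dsg2 had 223 in cardiomyocyte-like nuclei and 93.3 in endocardial-like nuclei, which here came before endothelial-like nuclei at 52.8. Dsc2 was the least abundant of them outside muscle, with 41.8 in cardiomyocyte-like and 15.5 in endothelial-like nuclei.

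Jup and Tjp1 had another order. Jup was lowest in cardiomyocyte-like nuclei, with a median of 35.0 raw CPM (29.1 to 74.7), and highest in endothelial-like nuclei, with 156. Endothelial-like nuclei were above endocardial-like nuclei (72.1) in 9 of 9 libraries for Jup, and fibroblast-like nuclei (68.8) were above cardiomyocyte-like nuclei in 9 of 9. Tjp1 had 209 in endothelial-like, 133 in endocardial-like, 91.6 in cardiomyocyte-like and 83.7 in fibroblast-like nuclei. Plakoglobin and ZO-1 are also parts of endothelial and epithelial junctions.

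Genes were compared with each other per kilobase of gene, since a long gene with many introns can gather more nuclear reads. Exonic and intronic reads were counted together, so this scale is approximate and the order depends on it. Without it Ctnna3 came first in cardiomyocyte-like nuclei, with a median of 4498 raw CPM. Per kilobase, over all cardiomyocyte-like nuclei, Gja1 came first with 23.4 raw CPM per kb. Pkp2 had 8.02, Dsp 6.68, Dsg2 4.40 and Cdh2 4.15. Ctnna3, whose gene spans 1574 kb, had 3.09, and Dsc2 with 1.69, Jup with 1.34 and Tjp1 with 0.46 followed. Gja1 was highest and Tjp1 lowest in each group, while the order between them varied. Cdh2 had 4.47 and Dsg2 2.49 in KO P10, Cdh2 had 5.42 and Dsg2 5.57 in control P10, and in control P6 Cdh2 with 2.44 was below Ctnna3 with 2.49. In the small pericyte-like class, which was not tested, Ctnna3 had 1798 raw CPM from 633 UMIs.

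**Figure D1:**
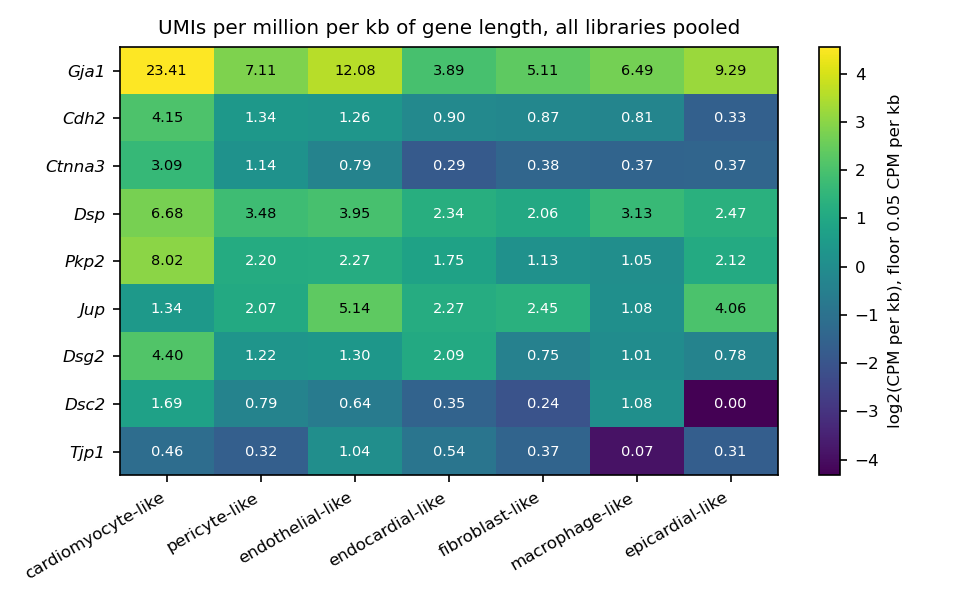
Level of each junction gene (rows) in each of 7 nucleus classes (columns), in raw CPM per kilobase of gene, over all libraries, on a log2 colour scale. Gja1 is highest in cardiomyocyte-like nuclei at 23.4, and Jup and Tjp1 are higher in endothelial-like than in cardiomyocyte-like nuclei.

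In knockouts, the desmosome genes Dsp, Dsg2 and Dsc2 fell in cardiomyocyte-like nuclei, with log2 fold changes of -0.93, -1.06 and -1.24. Pkp2 and Jup, which encode the armadillo proteins of the desmosome, did not pass the test, nor did the adherens and gap junction genes. All 9 members had UMIs in every cardiomyocyte-like sum, between 17 (Dsc2 in KO P10 library 1) and 12321 (Ctnna3), and all passed the filter on low counts. Of the 9, 3 were called lower and 0 higher at an adjusted p below 0.05, where 5.9% of the 10929 genes tested were called lower, 6.44% higher and 12.3% in either direction. The median log2 fold change of the members was -0.65, and that of all genes tested was 0.01.

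Dsp had 262, 236 and 169 CPM in KO P10 libraries 1 to 3, against 414, 389 and 464 CPM in control P10 libraries 1 to 3. The highest KO P10 library was below the lowest control P10 library. The means were 222 ± 47.8 CPM in KO P10 and 422 ± 37.9 CPM in control P10 (SD, n = 3 each), a log2 fold change of -0.93 ± 0.24 (SE, adjusted p = 0.0180, edgeR). The call was lost without KO P10 library 3 (adjusted p = 0.115) or without control P10 library 3 (adjusted p = 0.104), and the log2 fold change lay between -1.04 and -0.76 whichever of the 6 libraries was left out. With cardiomyocyte-like nuclei picked by their own marker UMIs instead of by cluster it was -0.45 (adjusted p = 0.306), and with clusters of low Malat1 added it was -0.56 (adjusted p = 0.162). With nuclei of at least 1000 UMIs it was -0.75 (adjusted p = 0.0539).

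Dsg2 had 171, 96.5 and 127 CPM in KO P10 libraries 1 to 3, against 276, 283 and 255 CPM in control P10 libraries 1 to 3. The control P10 libraries lay close together, and every KO P10 library was below them. The means were 131 ± 37.4 CPM in KO P10 and 272 ± 14.8 CPM in control P10 (SD, n = 3 each), with a log2 fold change of -1.06 ± 0.25 (SE, adjusted p = 0.0104, edgeR). Without KO P10 library 3 the adjusted p was 0.0517, and with nuclei picked by their own marker UMIs it was 0.0541.

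Dsc2 rested on few counts, 17, 18 and 45 UMIs in KO P10 and 22, 170 and 100 UMIs in control P10. Its levels were 27.7, 13.4 and 43.3 CPM in KO P10 libraries 1 to 3, against 39.5, 90.7 and 58.6 CPM in control P10 libraries 1 to 3. KO P10 library 3 was above control P10 library 1, so the groups overlapped. The log2 fold change was -1.24 ± 0.36 (SE, adjusted p = 0.0330, edgeR, n = 3 each). The call was lost when any of 4 libraries was left out, with -0.85 and an adjusted p of 0.119 without KO P10 library 2, 0.0549 without KO P10 library 1, -0.87 and 0.152 without control P10 library 2, and 0.0813 without control P10 library 3. It was also lost in a fit of the KO P10 and control P10 libraries alone (adjusted p = 0.0610), with nuclei of at least 1000 UMIs (0.0529), with candidate doublets kept (0.0677) and with nuclei picked by their own marker UMIs (0.0672), so 8 of 19 alternatives lost it.

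Pkp2 had 505, 466 and 532 CPM in KO P10 libraries, against 642, 492 and 472 CPM in control P10 libraries. The ranges overlapped, and the log2 fold change was -0.09 ± 0.23 (SE, adjusted p = 0.838). Jup had 66.7, 33.4 and 39.5 CPM in KO P10, against 41.3, 53.4 and 34.0 CPM in control P10, with a log2 fold change of 0.06 ± 0.30 (adjusted p = 0.926). The spread of both genes leaves room for changes in either direction, and these p-values do not show equal levels.

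At the adherens junction, Ctnna3 had 4786, 3354 and 3853 CPM in KO P10 libraries, against 9466, 5891 and 7222 CPM in control P10 libraries. Each KO P10 library was below each control P10 library, with means of 3998 ± 727 CPM in KO P10 and 7526 ± 1807 CPM in control P10 (SD, n = 3 each). The log2 fold change of -0.91 ± 0.32 (SE) had an adjusted p of 0.0693 with edgeR. It passed in 2 of 19 alternatives, with DESeq2 (adjusted p = 0.00724) and with no filter on low counts (0.0451). Cdh2 had 882, 1249 and 862 CPM in KO P10, against 2097, 946 and 1309 CPM in control P10, where library 2 was within the KO P10 range. Its log2 fold change was -0.54 ± 0.32 (adjusted p = 0.289, edgeR).

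Gja1 had 599, 321 and 528 CPM in KO P10 libraries, against 703, 782 and 676 CPM in control P10 libraries. The groups did not overlap, and KO P10 library 2 was the lowest. The log2 fold change of -0.58 ± 0.26 (SE) did not pass the test (adjusted p = 0.158, edgeR). Tjp1 had 74.9, 95 and 93.4 CPM in KO P10, against 145, 124 and 147 CPM in control P10. These groups did not overlap either, with a log2 fold change of -0.65 ± 0.22 and an adjusted p of 0.0645.

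**Figure D2:**
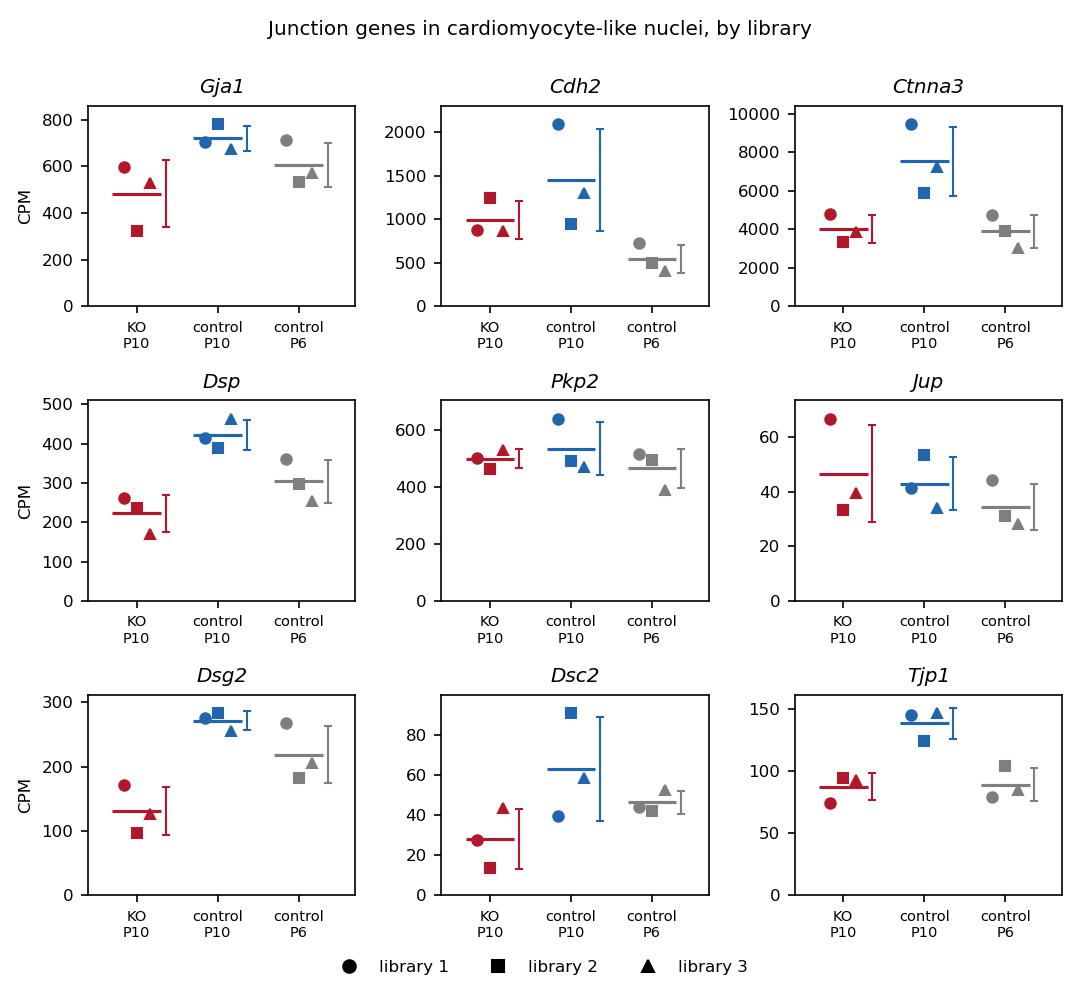
TMM-scaled CPM in cardiomyocyte-like nuclei for each junction gene (1 panel each), per library in KO P10, control P10 and control P6, with a line at the mean, a bar for the SD (n = 3) and marker shapes for libraries 1 to 3. The KO P10 points of Dsp (169 to 262) and Dsg2 (96.5 to 171) lie below all control P10 points of the same gene.

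The cardiomyocyte-like class was made up of different clusters in the groups. Cluster 5 held 60.8% of its nuclei in KO P10 and 3.76% in control P10, and cluster 3 held 16.4% in KO P10 and 66.1% in control P10. Cluster 4 held 19.5% in KO P10 and 24.8% in control P10. These shares pool the libraries of a group, and the KO P10 libraries differed. Cluster 5 held 103 of 519 nuclei in KO P10 library 1, 936 of 1246 in library 2 and 685 of 1072 in library 3. Cluster 3 held 192, 86 and 186 nuclei of these libraries. In control P10 libraries cluster 5 held 8 of 634, 88 of 1525 and 41 of 1484 nuclei. Within a cluster the levels are raw CPM and were not tested, since the clusters were formed from these nuclei. In cluster 4, Dsp lay between 202 and 276 in KO P10 and between 364 and 434 in control P10. In cluster 3, Dsp lay between 176 and 318 in KO P10 and between 341 and 431 in control P10, again without overlap. In cluster 5 the groups overlapped, with Dsp between 155 and 336 in KO P10 and between 156 and 581 in control P10, where the cluster held 137 nuclei.

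Within-cluster log2 ratios of KO P10 over control P10 for Dsp were -0.77 in cluster 3, -0.73 in cluster 4 and -0.58 in cluster 5. For Dsg2 these log2 ratios were -1.20, -1.12 and -0.71, and for Ctnna3 they were -0.72, -1.03 and -0.60. For Dsc2 they were -1.34 in cluster 3 and no further than -0.49 in clusters 4 and 5. Pkp2 stayed between -0.16 and 0.19 in the 3 clusters. Jup spread most, from -0.21 in cluster 3 to 0.91 in cluster 5. In cluster 5 of control P10, Jup rested on 9 UMIs, with 0 raw CPM in its lowest library, and Dsc2 rested on 11 UMIs. Dsc2 in cluster 3 of KO P10 rested on 15 UMIs.

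Markers of other cell types were detected in the same cardiomyocyte-like sums, 12 of 12 for fibroblasts and 7 of 7 for erythroid cells in each group. Fibroblast markers made up 0.159% to 0.512% of UMIs in KO P10 and 0.168% to 0.191% in control P10, and erythroid markers 0.290% to 0.994% in KO P10 and 0.126% to 0.229% in control P10. Malat1, an RNA kept in the nucleus, made up 5.45% of UMIs in KO P10 library 1, 14.7% in library 2 and 13.8% in library 3, against 10.9% to 13.1% in control P10. RNA of ribosomal protein genes made up 0.49% to 1.01% in KO P10 and 0.17% to 0.36% in control P10, without overlap. Without KO P10 library 1, Dsp had a log2 fold change of -1.04 and Dsg2 of -1.27 (adjusted p = 0.0178 and 0.00494, edgeR). With the Xist-high libraries as a term, the values were -0.94 for Dsp and -1.09 for Dsg2 (adjusted p = 0.0149 and 0.00628). The part of the fibroblast and erythroid markers and of the ribosomal protein RNA in these results was not tested.

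With age, Cdh2 and Ctnna3 were called higher in control cardiomyocyte-like nuclei. Cdh2 had 2097, 946 and 1309 CPM in control P10 libraries 1 to 3, against 730, 496 and 410 CPM in control P6 libraries 1 to 3. The ages did not overlap, and the log2 fold change was 1.41 ± 0.32 (SE, adjusted p = 0.00724, edgeR). Ctnna3 had 9466, 5891 and 7222 CPM in control P10, against 4743, 3904 and 3029 CPM in control P6, a log2 fold change of 0.95 ± 0.32 (adjusted p = 0.0497). In all, 2 of 9 members were called higher and 0 lower, where 7.97% of all genes tested were called higher, 8.71% lower and 16.7% in either direction. The members' median log2 fold change was 0.48, and that of all genes was -0.04.

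The Ctnna3 call lay at the threshold and was lost without control P10 library 1 (adjusted p = 0.129) or 3 (0.128), and without control P6 library 2 (0.143) or 3 (0.193). It was lost in 9 of 19 alternatives in all, the other 5 having adjusted p-values of 0.0503 to 0.144. Cdh2 kept its call when 1 library was left out, except without control P6 library 3, where its log2 fold change was 1.25 (adjusted p = 0.0535). Control P10 and control P6 also differed in cluster make-up, cluster 3 holding 66.1% of cardiomyocyte-like nuclei at P10 and 12.2% at P6, and cluster 4 holding 24.8% and 75.7%. Within clusters 3 and 4 the log2 ratios of control P10 over control P6 were 1.24 and 1.12 for Cdh2, and 0.77 and 0.67 for Ctnna3.

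The other members did not pass the test with age, although all 9 estimates were positive. Tjp1 had 145, 124 and 147 CPM in control P10, against 79.0, 104 and 84.7 CPM in control P6, without overlap (log2 fold change 0.63 ± 0.22, adjusted p = 0.0587, edgeR). In a fit of these 2 ages alone its adjusted p was 0.0433, and with candidate doublets kept it was 0.0377. Dsp had 414, 389 and 464 CPM in control P10, against 361, 298 and 253 CPM in control P6, again without overlap (0.48 ± 0.24, adjusted p = 0.177). Dsg2 had 276, 283 and 255 CPM in control P10, against 268, 182 and 206 CPM in control P6, where the highest P6 library was above the lowest P10 library. For Gja1, Pkp2, Jup and Dsc2 the log2 fold changes were 0.25, 0.19, 0.34 and 0.50, with adjusted p-values of 0.318 to 0.598.

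The comparison of KO P10 with control P10 and that of control P10 with control P6 share the control P10 libraries, so their values are not independent of each other. Side by side, Ctnna3 had -0.91 and 0.95, Cdh2 -0.54 and 1.41, Dsp -0.93 and 0.48, and Dsg2 -1.06 and 0.32 on the log2 scale.

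In fibroblast-like nuclei 6 of the 8 members tested were higher at control P10 than at control P6, and 0 were lower, where 6.97% of 8502 genes were called higher, 7.01% lower and 14% in either direction. Dsc2 was too low to be tested there. Gja1 had 169, 127 and 199 CPM in control P10, against 70.9, 34.9 and 50.2 CPM in control P6. The ages did not overlap, with a log2 fold change of 1.72 ± 0.34 (SE, adjusted p = 0.00285, edgeR, n = 3 each). Dsp rose by 1.98 ± 0.47 (adjusted p = 0.0101), with 156 ± 67.6 CPM in control P10 and 43.4 ± 33.1 CPM in control P6 (SD). Cdh2, Ctnna3, Pkp2 and Dsg2 rose by 1.18 to 1.91 on the log2 scale, with adjusted p-values of 0.00189 to 0.0288. Tjp1 with 0.79 and Jup with -0.08 did not pass the test. The calls of Gja1, Cdh2 and Ctnna3 held whichever library was left out, and those of Dsp, Pkp2 and Dsg2 were lost without control P6 library 2 (adjusted p = 0.0904, 0.114 and 0.153) and without control P6 library 3 (0.0712, 0.155 and 0.150). Without control P10 library 1, Pkp2 had 0.0569 and Dsg2 0.0867, and without control P10 library 3, Pkp2 had 0.116 and Dsp 0.0619. Dsp and Pkp2 were also lost with the Xist term (0.0565 and 0.0772), and Pkp2 and Dsg2 with candidate doublets kept (0.275 and 0.0925).

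Cardiomyocyte RNA moved with age in the same fibroblast-like sums. All 12 cardiomyocyte markers were detected, with a summed share of 1.70% to 2.5% of UMIs in control P10 and 0.94% to 1.00% in control P6. Ttn, which encodes the sarcomere protein titin, had 5663 ± 1874 CPM in control P10 and 937 ± 239 CPM in control P6 (SD, n = 3 each), a log2 fold change of 2.60 ± 0.40 (SE). Ryr2 and Myh6 were higher by 2.35 and 1.37. Per 1000 Ttn UMIs, the fibroblast-like sums held 29.7 Gja1 UMIs in control P10 and 53.8 in control P6. The cardiomyocyte-like sums held 39.3 in control P10 and 65.4 in control P6. For Dsp these ratios were 26.0 and 40.4 in fibroblast-like sums and 22.9 and 33 in cardiomyocyte-like sums. For Jup they were far apart, 14.4 and 89.7 in fibroblast-like sums and 2.4 and 3.7 in cardiomyocyte-like sums. The part of cardiomyocyte RNA in the fibroblast-like values was not tested.

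Endothelial-like nuclei held 6 of 8 members higher and 0 lower at control P10 than at control P6, where 12.4% of 6289 genes were called higher, 13% lower and 25.4% in either direction. Ctnna3 had 4046, 2311 and 2595 CPM in control P10, against 448, 278 and 228 CPM in control P6, a log2 fold change of 3.21 ± 0.42 (SE, adjusted p = 4.15e-06, edgeR). Cdh2, Gja1, Dsp, Pkp2 and Dsg2 were also higher, by 1.14 to 2.34. Jup and Tjp1, the members with their highest level in this class, had log2 fold changes of -0.64 and -0.56 that did not pass the test (adjusted p = 0.136 and 0.186). Jup had 126 ± 53.0 CPM in control P10 and 217 ± 51.8 CPM in control P6 (SD, n = 3 each). Ttn was higher by 2.53 in these sums, and cardiomyocyte markers made up 3.62% to 4.39% of UMIs in control P10 and 1.54% to 2.48% in control P6. The Gja1 call was lost without control P6 library 2 (adjusted p = 0.0627). With nuclei picked by their own marker UMIs, Gja1 had 0.65 (adjusted p = 0.120) and Dsp 0.79 (adjusted p = 0.0790), and neither was called. The part of cardiomyocyte RNA was not tested here either.

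In endocardial-like nuclei only Ctnna3 among the 8 members tested was called with age, at 1036 ± 375 CPM in control P10 and 448 ± 113 CPM in control P6 (SD, n = 3 each), where 3.88% of 4154 genes were called higher, 3.97% lower and 7.85% in either direction. Its log2 fold change was 1.15 ± 0.34 (SE, adjusted p = 0.0328, edgeR), with Ttn higher by 2.37 in the same sums. The call was lost without control P10 library 1 (adjusted p = 0.139) or 3 (0.114) and without control P6 library 2 (0.0868) or 3 (0.202), and with DESeq2 it had 0.0521.

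In knockouts, Ctnna3 was the member called lower in each of the 3 classes outside muscle. Fibroblast-like nuclei had 606, 374 and 409 CPM in KO P10, against 1187, 864 and 1000 CPM in control P10, a log2 fold change of -1.13 ± 0.28 (SE, adjusted p = 0.0262, edgeR), where 1.6% of genes were called lower, 2.31% higher and 3.9% in either direction. Endothelial-like nuclei had 1795, 496 and 770 CPM in KO P10, against 4046, 2311 and 2595 CPM in control P10 (-1.55 ± 0.39, adjusted p = 0.0268), where 1.24% were called lower, 1.69% higher and 2.93% in either direction. Endocardial-like nuclei had 412 ± 157 CPM in KO P10 and 1036 ± 375 CPM in control P10 (SD, n = 3 each, -1.31 ± 0.33, adjusted p = 0.0259), where 0.939% were called lower, 1.49% higher and 2.43% in either direction. The other 7 members tested in each class did not pass. In fibroblast-like nuclei Gja1 had 169 ± 62.4 CPM in KO P10 and 165 ± 35.9 CPM in control P10.

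Each of these 3 Ctnna3 calls was lost without KO P10 library 2 or 3 and without control P10 library 1 or 3. The adjusted p-values were 0.0936 to 0.149 in fibroblast-like, 0.0831 to 0.166 in endothelial-like and 0.134 to 0.178 in endocardial-like nuclei. With the barcodes shared by KO P10 libraries 1 and 2 kept and clusters formed anew, the fibroblast-like log2 fold change was -0.08 (adjusted p = 0.963) and the endocardial-like one -0.98 (0.222). In that setting fibroblast-like nuclei of KO P10 library 1 numbered 789 in place of 541. A further cluster of 578 nuclei, 254 from that library, was then named fibroblast-like. It had 3 of 12 fibroblast markers raised and was led by Kcnd2 and Xist. Its part in the lost fibroblast-like call was not tested. The endocardial-like call was also lost with candidate doublets kept (-0.71, adjusted p = 0.403), and the endothelial-like one with own marker UMIs (-1.24, 0.0921). Cardiomyocyte markers made up 2.71% to 4.09% of UMIs in KO P10 and 1.70% to 2.5% in control P10 in fibroblast-like nuclei. Ryr2, itself a cardiomyocyte marker, had a log2 fold change of -0.99 there and of -1.44 in endothelial-like nuclei (adjusted p = 0.156 and 0.0238). Per 1000 Ttn UMIs, fibroblast-like sums held 71.7 Ctnna3 UMIs in KO P10 and 179 in control P10, and cardiomyocyte-like sums held 185 in KO P10 and 374 in control P10. Malat1 made up 2.93% to 5.28% of UMIs in fibroblast-like KO P10 sums and 6.44% to 7.59% in those of control P10. These shares were 2.79% to 4.30% and 5.89% to 6.85% in endothelial-like sums. In endocardial-like sums they were 2.64% to 4.80% and 5.31% to 6.87%. Neither the part of cardiomyocyte RNA nor that of the Malat1 difference in the Ctnna3 values was tested.

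**Figure D3:**
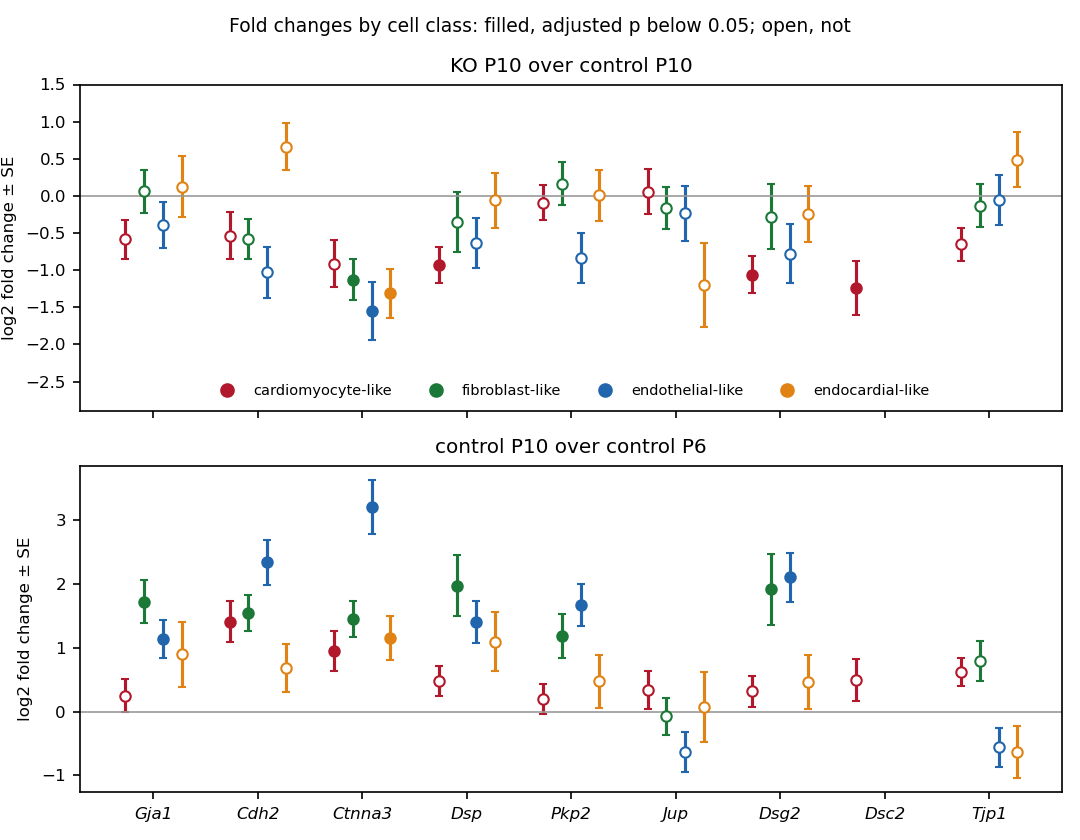
Log2 fold change (dots) with its SE (bars) of each junction gene in the 4 tested classes (colours), for KO P10 over control P10 (top) and control P10 over control P6 (bottom). Filled dots had an adjusted p below 0.05, of these classes Dsc2 was tested only in cardiomyocyte-like nuclei, and Ctnna3 is filled in all 4 classes for age and in the 3 classes outside muscle for genotype.

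Whether a change differed between cardiomyocyte-like and fibroblast-like nuclei was tested directly, with the library as a block. For KO P10 over control P10, 0 of 9 members differed (edgeR, 3 of 9 at an unadjusted p below 0.05), where 1.13% of 10808 genes had a called negative difference, 1.47% a positive one and 2.6% either. The smallest adjusted p was 0.202 for Gja1, whose difference of log2 fold changes was -0.61 ± 0.24 (SE), and the differences were -0.64 ± 0.30 for Dsp and -0.73 ± 0.35 for Dsg2. So the lower Dsp and Dsg2 in cardiomyocyte-like nuclei were not shown to be particular to them. For control P10 over control P6, 4 of 9 differed, all negative, where 1.7% of all genes had a called negative difference, 0.823% a positive one and 2.53% either. Gja1 had a difference of -1.61 ± 0.29 (adjusted p = 0.000186), Dsp -1.61 ± 0.36 (0.00433), Dsg2 -1.69 ± 0.45 (0.0250) and Pkp2 -1.20 ± 0.32 (0.0263). These 4 genes changed less with age in cardiomyocyte-like than in fibroblast-like nuclei, in a fit whose median difference over all genes was -0.13. Ttn had -1.60 and Myh6 -1.88 in the same fit. The Gja1 call held in all 8 alternatives. The other 3 were lost without control P6 library 2 (adjusted p = 0.185 for Dsp, 0.188 for Pkp2 and 0.168 for Dsg2). Without control P6 library 3 the adjusted p was 0.202 for Pkp2 and 0.211 for Dsg2, without control P10 library 3 it was 0.067 for Dsp and 0.285 for Pkp2, and without control P10 library 1 it was 0.117 for Dsg2. Pkp2 and Dsg2 were also lost with DESeq2 size factors (0.0690 and 0.0513) and with no filter on low counts (0.0812 and 0.0549).

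Of 42 further junction genes listed by role, 30 were tested in cardiomyocyte-like nuclei. In KO P10 against control P10, 4 were higher and 1 lower, beside 6.44% of all genes called higher and 5.9% lower, and their median log2 fold change was 0.16. Among 10 adherens junction partners, 2 were higher. Ctnnb1, which encodes β-catenin, a binding partner of cadherins, had 204 ± 57.7 CPM in KO P10 and 71.3 ± 15.9 CPM in control P10 (SD, n = 3 each, log2 fold change 1.49 ± 0.27, adjusted p = 0.00181, edgeR). Itgb1, the β1 integrin that binds the matrix, had 513 ± 32.4 CPM in KO P10 and 281 ± 63.3 CPM in control P10 (0.88 ± 0.23, adjusted p = 0.0204).

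Of the other desmosome genes 3 of 10 were tested and 2 were higher. Des, which encodes the desmin filament that desmoplakin anchors, had 322 ± 112 CPM in KO P10 and 169 ± 19.0 CPM in control P10 (0.93 ± 0.26, adjusted p = 0.0252). Perp, a membrane protein of desmosomes known from mouse skin, had 218 ± 20.6 CPM in KO P10 and 84.9 ± 33.9 CPM in control P10 (1.32 ± 0.27, adjusted p = 0.00414). None of the 2 connexins and 4 genes of other cell types tested in cardiomyocyte-like nuclei was called. Outside muscle, both Des and Perp were called higher in fibroblast-like nuclei (Des by 1.78, Perp by 1.59), Perp in endothelial-like nuclei (1.76) and Des in endocardial-like nuclei (1.54). In these classes 2.31%, 1.69% and 1.49% of all genes were called higher. Fibroblast-like sums held 0.96% to 1.34% ribosomal protein RNA in KO P10 and 0.37% to 0.75% in control P10. Their cardiomyocyte markers made up 2.71% to 4.09% in KO P10 and 1.70% to 2.5% in control P10. The part of these differences in the Des and Perp values was not tested.

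With age, 6 of the 30 were higher in control P10 than in control P6 and 0 were lower (median log2 fold change 0.40), beside 7.97% of all genes higher, 8.71% lower and 16.7% in either direction. They were Ctnnd1 (1.04), which encodes the cadherin-binding p120 catenin, Ank2 (0.97), an ankyrin that anchors membrane proteins, and Tmem65 (1.14), a membrane protein of the disc. Cdh5 (1.09), Cdh11 (1.29) and Cdh13 (1.60), cadherins typical of endothelium or mesenchyme, were the others. Fibroblast markers made up 0.168% to 0.191% of UMIs in the control P10 cardiomyocyte-like sums and 0.080% to 0.096% in those of control P6. Endothelial markers made up 0.044% to 0.074% in control P10 and 0.038% to 0.047% in control P6. Pericyte markers made up 0.069% to 0.072% and 0.035% to 0.051%. The part of RNA of these cell types in these values was not tested.

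Summed over all barcodes of a library, where fewer cells of a type and less RNA per cell cannot be told apart, Ctnna3 and Dsc2 were lower in KO P10. Ctnna3 had a mean of 1813 CPM in KO P10 and 3589 CPM in control P10 (log2 fold change -0.99, adjusted p = 0.0172, edgeR), and Dsc2 had 23.6 CPM in KO P10 and 40.8 CPM in control P10 (-0.80, adjusted p = 0.0325). Here 6.86% of 15841 genes were called lower, 9.47% higher and 16.3% in either direction. The Ctnna3 call was lost without KO P10 library 3 (adjusted p = 0.0726) or control P10 library 3 (0.0913). That of Dsc2 was lost without KO P10 library 2 (0.118), control P10 library 2 (0.121) or control P10 library 3 (0.100). With age, Cdh2 (1.40), Ctnna3 (0.98), Dsp (0.81) and Dsg2 (0.72) were higher in control P10 than in control P6, where 10.8% of genes were called higher, 13.1% lower and 23.9% in either direction. Of these only Cdh2 held whichever library was left out.

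Genes with the most similar pattern were found over the 36 class sums of the 4 tested classes, which share libraries and depth, so the correlations only describe. Gja1 was closest to Rbm24 (r = 0.93), Pln (0.92) and Mybpc3 (0.91). Cdh2 was closest to Fhod3, Akap6 and Cacna1c (0.95 each), and Ctnna3 to Palld (0.97), Myocd and Fgf13 (0.96 each). For Dsp they were Txlnb (0.89), Pde4dip (0.86) and Ryr2 (0.85), and for Pkp2 Lrrfip1 (0.94), Lmo7 and Camk2d (0.93 each). Dsg2 was closest to Cers4 (0.88), Dsc2 to Bves (0.81) and Mapt (0.78), and Jup to Aes (0.85). Tjp1 was closest to Adgrl4 (0.84), Myct1 (0.81) and Ica1 (0.80). Among the members, Cdh2 and Ctnna3 were the most alike (r = 0.90), and Jup ran against Cdh2 (r = -0.48). Level differences between classes enter these values, and over the 9 cardiomyocyte-like sums alone, which differ in group, r was 0.76 for Cdh2 and Ctnna3 and 0.29 for Cdh2 and Jup.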

How the data were processed

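The 9 single-nucleus Drop-seq libraries of mouse ventricles were grouped by the genotype and stage in the labels. The deposited files hold raw UMI counts by gene and cell barcode, exonic and intronic reads together, per the file names. The submitters' processing notes name STAR 2.5.2a and mm10, while barcode selection, annotation and strand are not given in the sources used here.

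Mitochondrially encoded genes were left out, as were barcodes under 500 UMIs, barcodes of KO P10 library 2 shared with library 1, and the 5% of nuclei with the highest doublet scores per library (Scrublet in scanpy 1.11.5). The 2000 most variable genes, centred within libraries, gave 30 principal components and Leiden clusters (15 neighbours, resolution 1.0). Clusters were named where at least 3 listed markers were raised 1.5-fold with no rival class, and stayed unnamed with Malat1 under 40% of the median over clusters. A class was tested if every library held at least 50 of its nuclei. Counts were summed per class and library and compared with edgeR 4.0.16 (quasi-likelihood F test, two-sided, all 9 libraries, group as the only term, TMM, filterByExpr), with Benjamini-Hochberg adjustment over all genes tested and a threshold of 0.05. DESeq2 1.42.0 was an alternative. SEs were taken from the F statistic. The test recovered known changes in simulated data.

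Named were all 9 members, junction list genes called in cardiomyocyte-like sums, and the 3 genes most correlated with each member; 2 genes that met this rule are not reported here. The members, lists, classes and tests were chosen with earlier results of these data known. Positions and lengths are from GENCODE vM21 (GRCm38). Counting intervals and floors, where used, cover counting error only.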

Additional observations from a re-analysis of the deposited data

Results flagged for a closer look

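The change with age of 4 genes differed between cardiomyocyte-like and fibroblast-like nuclei in a direct test of the difference (class by group interaction with the library as a block, edgeR). The difference of the log2 fold changes of control P10 over control P6, cardiomyocyte-like minus fibroblast-like, was -1.61 for Gja1, -1.61 for Dsp, -1.20 for Pkp2 and -1.69 for Dsg2. In cardiomyocyte-like nuclei their log2 fold changes were 0.25, 0.48, 0.19 and 0.32, and in fibroblast-like nuclei 1.72, 1.98, 1.18 and 1.91. In fibroblast-like sums Ttn had 5663 CPM in control P10 and 937 CPM in control P6, and its part in these differences was not tested.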

How the results depend on the processing

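The numbers of members called at an adjusted p below 0.05 moved by over 1.5 times under these alternatives. In cardiomyocyte-like nuclei, KO P10 against control P10 (3 members) gave 1 with nuclei of at least 1000 UMIs and 0 with classes from own marker UMIs. Control P10 against control P6 (2 members) gave 1 under each of those settings, with low-Malat1 clusters added, with the cycling cluster left out, and with cluster 6 added, the last chosen after seeing the data. For genotype, fibroblast-like nuclei gave 0 in place of 1 with shared barcodes kept, and endocardial-like nuclei gave 0 with shared barcodes or candidate doublets kept. Clusters were formed and named anew in both settings. Endothelial-like nuclei gave 2 with the replicate block or an Xist term and 0 with own marker UMIs. For age, DESeq2 gave 0 in endocardial-like nuclei, and the class difference gave 2 in place of 4 with DESeq2 size factors or with no filter on low counts. Leaving out 1 library gave, for genotype and for age, 1 to 3 and 0 to 2 members in cardiomyocyte-like, 0 to 1 and 3 to 6 in fibroblast-like, 0 to 2 and 5 to 6 in endothelial-like, and 0 to 1 and 0 to 1 in endocardial-like nuclei. It gave 0 to 3 and 1 to 4 over all barcodes, and 0 to 1 and 1 to 4 for the class difference. In cardiomyocyte-like nuclei the log2 fold change reversed for Pkp2 (0.057 without control P10 library 1 for genotype, -0.028 with own marker UMIs for age) and for Jup in the genotype comparison (-0.10 without control P10 library 3, -0.24 without KO P10 library 1, -0.090 with at least 1000 UMIs, -0.12 with own marker UMIs), and neither gene was called. Leaving out 1 library gave -0.18 to 0.057 for Pkp2 and -0.24 to 0.28 for Jup in that comparison. The causes were not tested. Of 659 single-gene values under alternatives, 559 kept their direction and side of the threshold, 90 lost the call, 4 gained it and 6 reversed. Over all genes, the age calls in cardiomyocyte-like nuclei were 1077 in place of 1823 with at least 1000 UMIs. With the Xist term they were 567 in place of 1189 in fibroblast-like, 855 in place of 1595 in endothelial-like and 196 in place of 326 in endocardial-like nuclei. DESeq2 gave 193 for age and 65 in place of 101 for genotype in endocardial-like nuclei, own marker UMIs gave 60 in place of 184 for genotype in endothelial-like nuclei, and no filter gave 178 in place of 281 and 176 in place of 273 class differences. Same-numbered libraries of different groups correlated at -0.14 to 0.22, and differently numbered ones at -0.31 to 0.33. No pairing by number was seen, and whether libraries shared a batch was not tested. The replicate block called 3 and 2 members for genotype and age in cardiomyocyte-like nuclei and 3 members for genotype over all barcodes, in place of 3, 2 and 2. The alternatives with at least 1000 UMIs outside cardiomyocyte-like nuclei, and with own marker UMIs in fibroblast-like and endocardial-like nuclei, left a library under 50 nuclei and were not run. Depth limits Dsc2 and Jup, whose lowest cardiomyocyte-like sums held 17 and 23 UMIs.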

Other observations

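A cycling cluster (13) made up 3.35% of cardiomyocyte-like nuclei in KO P10, 5.41% in control P10 and 9.85% in control P6, libraries pooled. By library it held 40 of 519, 1 of 1246 and 54 of 1072 nuclei in KO P10. In control P10 it held 33 of 634, 102 of 1525 and 62 of 1484. In control P6 it held 38 of 908, 160 of 1291 and 147 of 1302, so library shares overlapped between groups. Cell cycle genes such as Ect2 and Mki67 were among the leading genes of this cluster. Junction gene levels in it, in raw CPM, are described without a test, since the cluster was formed from these nuclei. Gja1 had 216 in the cycling nuclei of KO P10 library 1 and 490 in those of library 3, against 713 and 510 in the other cardiomyocyte-like nuclei of these libraries, while KO P10 library 2 held 1 cycling nucleus. In control P10 libraries Gja1 had 342, 422 and 289 in cycling nuclei, against 612, 829 and 649 in the other nuclei. In control P6 libraries it had 294, 366 and 404 in cycling nuclei, against 699, 583 and 658 in the others. Gja1 was thus lower in cycling nuclei in each library with more than 1 of them, from 10 to 91 UMIs. In KO P10 library 3, with 28 Gja1 UMIs in cycling nuclei, the 2 levels were too close to tell apart. Ctnna3 in control P6 had 3560, 3738 and 3153 in cycling nuclei, against 4554, 4059 and 3300 in the others. It was lower in cycling nuclei of each control P10 library and of KO P10 library 3 too, and higher in those of KO P10 library 1 (5979 against 5305). Dsp in KO P10 libraries 1 and 3 had 151 and 35.0 in cycling nuclei, from 7 and 2 UMIs, against 307 and 171 in the others. In control P10 it did not keep one direction, with 513, 402 and 356 in cycling nuclei, against 343, 396 and 435 in the others. In control P6 it was lower in cycling nuclei, with 311, 245 and 173, against 344, 317 and 291.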
